A study of Homo sapiens with 6 samples.

Results

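Glycolysis, the pentose phosphate pathway and the hypoxia response were followed in HGC-27 cells depleted of ACAT2 through 42 genes, chosen by name from the 58735 genes of the expression table. The question was whether a rise of SLC2A3, a glucose transporter, went with the glycolytic enzymes or with the target genes of the hypoxia-inducible factor (HIF). HGC-27 is an established line of undifferentiated human gastric carcinoma, given in the labels as wild type. Total RNA was sequenced from 3 libraries of cells carrying pSIH-H1-Puro-shACAT2, a vector with a short hairpin RNA against ACAT2, and from 3 libraries of cells carrying pSIH-H1-Puro-shNC. Both groups (shACAT2 and shNC) had been transfected for 24 h and then kept in puromycin for 7 days, in medium with serum, and no hypoxia or change of glucose is named for either. Which of the study's hairpins the cells carried is not given in the labels, nor whether the libraries of a group were separate cultures, so n counts libraries, and p-values measure the spread between these libraries, which may be technical.

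Glycolysis splits glucose into pyruvate, which lactate dehydrogenase turns into lactate or pyruvate dehydrogenase feeds into mitochondrial oxidation, while the pentose phosphate pathway branches off early to give NADPH and ribose. In the presence of oxygen, EGLN prolyl hydroxylases mark the HIF alpha subunit for destruction. In its absence HIF binds DNA and raises glucose transporters, glycolytic enzymes and genes for vessel growth, pH control and mitophagy. HIF1A is controlled mainly as a protein, so its RNA level is not a measure of HIF activity.

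The DNA element bound by HIF has the core ACGTG or GCGTG, and both were searched on both strands of the RefSeq promoter windows (GRCh38.p14, 250 bases before to 50 after a start). Of the 42 genes, 37 had at least 1 window, 66 windows in all, while SLC2A3, PFKFB2, SLC16A1, VEGFA and NDRG1 had none listed. The core was found in 41 of the 66 windows, or 62.1%, against 62.1% of the 12999 windows of the genes tested here and 48.4% of all 35116 windows. CACGTG, which holds ACGTG on both strands and is also bound by other factors, was found in 8 of the 66 windows and in 7.26% of all windows. The 250 bases before the start are shown for ADM, a HIF target that was upregulated, and for PGK1 and LDHA, glycolytic HIF targets that did not pass the test, so that the promoters of genes with unlike outcomes can be compared. Capitals mark the core on either strand. All are on the plus strand, ADM at chr11:10304823-10305072, PGK1 at chrX:78103998-78104247 and LDHA, in the first of its windows, at chr11:18394313-18394562.
ADM: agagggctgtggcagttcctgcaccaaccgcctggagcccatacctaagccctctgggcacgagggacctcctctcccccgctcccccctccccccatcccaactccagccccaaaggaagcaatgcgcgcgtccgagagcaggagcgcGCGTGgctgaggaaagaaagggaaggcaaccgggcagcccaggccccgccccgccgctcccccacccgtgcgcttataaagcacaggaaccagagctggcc
PGK1: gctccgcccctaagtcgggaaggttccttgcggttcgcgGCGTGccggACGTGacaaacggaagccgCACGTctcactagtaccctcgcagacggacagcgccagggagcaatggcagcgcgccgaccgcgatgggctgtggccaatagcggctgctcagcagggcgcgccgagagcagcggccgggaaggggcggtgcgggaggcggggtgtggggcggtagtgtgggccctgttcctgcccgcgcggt
LDHA: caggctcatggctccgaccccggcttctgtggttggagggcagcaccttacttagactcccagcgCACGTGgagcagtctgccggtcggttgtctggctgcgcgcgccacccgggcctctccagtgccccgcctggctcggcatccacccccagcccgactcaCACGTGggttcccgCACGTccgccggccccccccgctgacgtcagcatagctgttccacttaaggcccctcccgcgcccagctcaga
The gene that rose had 1 core in this stretch, PGK1 had 3, and LDHA had 5 in 3 runs of capitals, 2 of which were CACGTG. The single window listed for PGAM1, the glycolytic enzyme that rose, held none. By the gene bounds that come with the expression values, this window and the stretches shown for ADM and PGK1 lie inside the gene. The stretch of LDHA begins before its gene and ends inside it. A match of letters is a description and not a binding site.

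The values are FPKM, counts of fragments divided by gene length in kilobases and by a size factor of the library, and rest on 14086416 to 16067486 fragments on genes per library. ACAT2 (chromosome 6, 159760328 to 159779055 on hg38), the targeted gene, fell from 12.9 ± 1.25 FPKM in shNC to 5.90 ± 0.388 FPKM in shACAT2 cells (SD, 3 libraries each), a log2 fold change of −1.01 (limma adjusted p = 0.0059, or 0.0512 without shNC-3), and 52.3% of its exon bases overlap exons on the opposite strand. shNC-2 with shNC-3 was the most alike pair within a group, with a chi-square of 1.73 per gene against 12.1 to 46.0, and shACAT2-3 had 7477 genes with fragments in no other library, against 416 to 657. All 8 gastric mucosa markers and 4 of 5 epithelial markers lay below 1 FPKM in every library, with EPCAM, KRT18 and KRT19 at or near 0. Of 8 fibroblast or mesenchymal markers, 7 were at 1 FPKM or more throughout. All 8 summed to 552 to 633 FPKM in shNC and 817 to 998 FPKM in shACAT2 libraries, mostly VIM, COL3A1 and COL1A1. PDGFRA was lower, at 1.35 to 1.70 FPKM in shACAT2 against 2.26 to 2.62 FPKM in shNC libraries. Every other marker of this list had a higher mean in shACAT2 cells. The summed epithelial markers came to 0.505 to 0.830 FPKM in shNC and 1.44 to 2.22 FPKM in shACAT2 libraries. Endothelial markers (5 of 5) and leukocyte markers (5 of 6) lay below 1 FPKM, and of 3 erythroid markers only HBA1 lay above it. Whether the marker levels that moved have a part in the changes described here was not tested. In bulk RNA, fewer cells of a type and less RNA per cell cannot be told apart.

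Of the 42 genes, 37 reached a mean of 1 FPKM in either group and were tested among 13832 genes, with limma on log2(FPKM + 1), a scale that understates the change of genes with low values. At an adjusted p below 0.05, 4 rose in shACAT2 cells, namely SLC2A3, PGAM1, ADM and NDRG1, 0 fell, and 33 were not called. NDRG1, with a mean of 0.412 FPKM in shNC cells, was tested only through its shACAT2 level. It therefore had to differ, and weighs little in the counts given here. The 42 genes were chosen with earlier results of these data known, and the rise of SLC2A3 was the starting point of the question. The call of SLC2A3 is therefore not independent support either. Over all genes tested 3.3% were called higher and 1.81% lower. At an unadjusted p below 0.05, 7 of the 37 were higher and 2 lower, against 12.8% and 10.7% of all genes. By limma-voom on the recovered fragments 4 were called higher and 1 lower, against 4.24% and 4.19% of all genes. The same 4 genes were past the limits the study used, a log2 fold change above 1 and an unadjusted p below 0.05, which 0.983% of all genes passed upwards. Here these limits were applied to the limma fit of log2(FPKM + 1), which does not repeat the study's own calls. In 9 genes all 3 shACAT2 values lay above all 3 shNC values (16.2% of all genes), in 4 they lay below (14.5%), and in 24 the groups overlapped. The median log2 fold change of the 37 was 0.10, against 0.02 over all genes. With the replicate number of the labels as a block, 7.67% of all genes were called higher and 4.81% lower, and HK1 (adjusted p = 0.0387, higher) and ENO2 (adjusted p = 0.0430, lower) joined the 4 genes, while every other call among the 37 was the same.

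Glucose enters these cells through facilitative transporters. SLC2A3 (ENSG00000059804, chromosome 12, 7919230 to 7936275), which encodes the high-affinity transporter GLUT3, was at 3.12, 2.20 and 2.55 FPKM in shNC-1 to shNC-3 and at 10.4, 8.42 and 9.98 FPKM in shACAT2-1 to shACAT2-3. The groups were far apart, and the lowest shACAT2 value was above the highest shNC value. SLC2A3 was upregulated 3.66-fold in mean FPKM, with a log2 fold change of 1.55 (95% interval 1.25 to 1.85, limma adjusted p = 0.0035), which ranked 24th of the 13832 genes. Since the question began from this rise, the p-value and rank of SLC2A3 are a description. SLC2A14, a close copy of SLC2A3, held at most 9 fragments in any library against 220 to 975 for SLC2A3, and how fragments matching both were counted is not given.

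SLC2A1 (ENSG00000117394), which encodes GLUT1, the basal transporter and itself a HIF target, stood at 19.6, 15.7 and 16.7 FPKM in shNC-1 to shNC-3 and at 18.9, 15.2 and 14.3 FPKM in shACAT2-1 to shACAT2-3. The groups overlapped, with the first library of each the highest. Its log2 fold change was −0.10 (95% interval −0.43 to 0.23, limma adjusted p = 0.709). GLUT1 RNA thus stayed the more abundant per length, while the share of SLC2A3 in the summed FPKM of both transporters went from 13.1 ± 0.716% in shNC to 37.4 ± 3.16% in shACAT2 cells (SD, n = 3 each). The 3 shares of shACAT2 cells were 35.6%, 35.7% and 41.1%, all above the highest shNC share of 13.7% (exact two-sided test by permutation, p = 0.1, the least that 3 against 3 allow, and 0.2 adjusted over 10 shares).

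**Figure D1:**
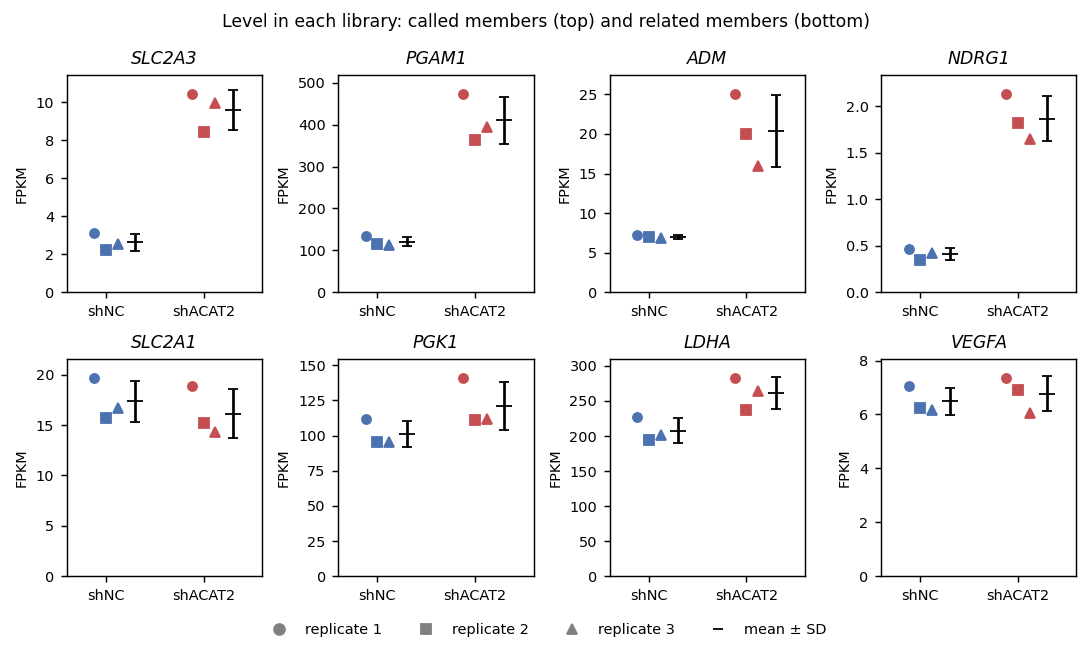
FPKM in each library (symbols give the replicate number) with the mean and SD of each group of 3, on linear axes from 0. In the upper row SLC2A3, PGAM1, ADM and NDRG1 have every shACAT2 library above every shNC library, and in the lower row SLC2A1, PGK1 and VEGFA overlap between the groups while LDHA does not.

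Of the 15 glycolytic enzymes, all tested, 1 rose and 0 fell by limma, 2 were higher and 2 lower at an unadjusted p below 0.05, and limma-voom called 1 in each direction. Over all genes the shares were 12.8% and 10.7% at that p and 4.24% and 4.19% by limma-voom. Their median log2 fold change was 0.10. PGAM1 (ENSG00000171314, chromosome 10, 97426160 to 97433441), the phosphoglycerate mutase that moves the phosphate group late in the pathway, was at 134, 116 and 114 FPKM in shNC-1 to shNC-3 and at 473, 364 and 395 FPKM in shACAT2-1 to shACAT2-3. Every shACAT2 library held at least 364 FPKM, far above the shNC libraries. The log2 fold change of 1.75 (95% interval 1.42 to 2.08, limma adjusted p = 0.0035), a 3.39-fold rise in mean FPKM, ranked 10th of all genes tested and was the largest of the 37. It rests on 4813 to 18430 fragments per library.

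PGAM4, a copy of PGAM1 that could exchange reads with it, was named after its values were seen. Its 13, 8 and 7 fragments in shNC and 39, 54 and 21 fragments in shACAT2 libraries were few beside those of PGAM1 and were higher in the same libraries. Of 11 other genes tested within 200 kb of PGAM1, 0 were called by limma, with log2 fold changes from −0.54 to 0.67. Around SLC2A3, ADM and NDRG1 there were 2, 2 and 1 such genes, and 0 of them were called.

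The enzymes that act just before and after PGAM1 did not pass the test. PGK1, a phosphoglycerate kinase, was at 112, 95.5 and 95.7 FPKM in shNC and 141, 111 and 112 FPKM in shACAT2 libraries, values that overlapped, with a log2 fold change of 0.25 (95% interval −0.07 to 0.58, limma adjusted p = 0.317). GAPDH, the dehydrogenase upstream of it, was at 1265, 1082 and 1092 FPKM in shNC and 1331, 1012 and 1059 FPKM in shACAT2 libraries, and its log2 fold change of −0.02 had a 95% interval of −0.36 to 0.32. ENO1, the main enolase, which takes the product of PGAM1, had a log2 fold change of 0.14 (95% interval −0.26 to 0.54). PKM, pyruvate kinase, was at 173, 145 and 146 FPKM in shNC and 210, 167 and 146 FPKM in shACAT2 libraries, with overlapping groups and a log2 fold change of 0.16 (95% interval −0.22 to 0.55). The upper bounds of all 4 intervals lay below the lower bound of 1.42 for PGAM1.

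Hexokinases trap glucose in the cell. HK2, the inducible form, was at 37.0, 34.6 and 35.6 FPKM in shNC and 32.1, 31.9 and 28.7 FPKM in shACAT2 libraries, so that all shACAT2 values lay lower, but its log2 fold change of −0.21 did not pass (95% interval −0.44 to 0.03, limma adjusted p = 0.264). HK1, the constitutive form, lay higher in all shACAT2 libraries, at 6.38 ± 0.661 against 4.86 ± 0.449 FPKM (SD, n = 3 each), with a log2 fold change of 0.33 (limma adjusted p = 0.122, or 0.0387 with the replicate block). The HK2 share of both went from 88.1 ± 0.705% to 82.9 ± 1.27% (SD, n = 3 each, exact permutation p = 0.1, adjusted 0.2).

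Phosphofructokinase commits sugar to glycolysis and is made of 3 kinds of subunit. PFKP, the platelet type, made up 46.3 ± 1.14% of their summed FPKM in shNC and 54.3 ± 1.69% in shACAT2 cells (SD, n = 3 each, exact permutation p = 0.1, adjusted 0.2), with log2 fold changes of 0.11 for PFKP, −0.32 for PFKL and −0.35 for PFKM, of which none was called. In PFKM all 3 shACAT2 values were lower. The PFKFB enzymes set fructose 2,6-bisphosphate, the activator of phosphofructokinase. PFKFB2, PFKFB3 and PFKFB4 had log2 fold changes of 0.20, 0.27 and −0.11, none of them called, although all shACAT2 values of PFKFB2 and PFKFB3 lay above the shNC values. The share of PFKFB4 among the 3 was 7.48 ± 0.863% in shNC and 5.32 ± 0.347% in shACAT2 cells (SD, n = 3 each, exact permutation p = 0.1, adjusted 0.2).

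ENO2, the neuronal enolase and a HIF target in many cells, was the lowest of the 37 in log2 fold change. It was at 9.96 ± 0.697 FPKM in shNC cells and at 7.09 ± 1.12 FPKM with shACAT2 (SD, n = 3 each), with all shACAT2 values below all shNC values. Its log2 fold change of −0.44 (95% interval −0.74 to −0.15) had a limma adjusted p of 0.0916 and was called lower with the replicate block (0.0430), with library-size scaling (0.0361), with upper-quartile scaling (0.0326), by limma-voom (0.0294) and without shACAT2-1 (0.0323). ENO2 was 1.41 ± 0.0830% of the summed FPKM of ENO1 and ENO2 in shNC and 0.911 ± 0.0359% in shACAT2 cells (SD, n = 3 each, exact permutation p = 0.1, adjusted 0.2).

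GPI, ALDOC and TPI1 completed the pathway with log2 fold changes from −0.03 to 0.10 and overlapping groups. ALDOA, the main aldolase of most tissues, was listed at only 0.784 to 2.59 FPKM, from 47 to 154 fragments per library, and its level is uncertain. Of its exon bases, 42.3% are shared with AC093512.2 on the same strand, itself at 0.396 to 0.587 FPKM, and fragments on exons of more than 1 gene may have gone uncounted, which was not tested. Its log2 fold change of 0.38 had a 95% interval of −0.18 to 0.94. The ALDOC share of ALDOA and ALDOC was 86.5 ± 4.73% in shNC and 81.7 ± 5.34% in shACAT2 cells (SD, n = 3 each, exact permutation p = 0.2). ALDOA and AC093512.2 were picked out after their values were seen.

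Among the genes for the fate of pyruvate, 0 of the 6 tested were called. LDHA, the lactate dehydrogenase subunit that HIF induces, was at 228, 194 and 201 FPKM in shNC and 282, 237 and 265 FPKM in shACAT2 libraries. All shACAT2 values were above the shNC values, but by little, and the log2 fold change of 0.33 (95% interval 0.04 to 0.62) had a limma adjusted p of 0.165. LDHB, the other subunit, was alike at 0.31 (95% interval 0.06 to 0.55, limma adjusted p = 0.138), with 33.4% of its exon bases shared with another gene on the same strand, so that the LDHB share of both was 9.06 ± 0.383% and 9.01 ± 0.498% (SD, n = 3 each, exact permutation p = 0.9). At an unadjusted p below 0.05 LDHA and LDHB were higher, while limma-voom called neither. SLC16A1, a monocarboxylate carrier that moves lactate, differed by −0.02 on the log2 scale (95% interval −0.24 to 0.19), and SLC16A3, the exporter that HIF induces, lay under the filter at 0.459 to 0.930 FPKM. The SLC16A3 share of both carriers was 1.08 ± 0.0548% in shNC and 1.39 ± 0.501% in shACAT2 cells (SD, n = 3 each, exact permutation p = 0.4).

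PDHA1, a subunit of pyruvate dehydrogenase, and PDK2 and PDK3, kinases that switch it off, had log2 fold changes of 0.15, 0.04 and −0.18. PDK1, the kinase that HIF induces, lay under the filter, at 0.606, 0.941 and 0.877 FPKM in shNC and 0.496, 0.619 and 0.640 FPKM in shACAT2 libraries, with overlapping groups. PDK4 was at 0 in 5 libraries and held 2 fragments in the other. PDK1 made up 15.7 ± 3.79% of the summed kinases in shNC and 12.3 ± 1.99% in shACAT2 cells (SD, n = 3 each, exact permutation p = 0.3).

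The pentose phosphate enzymes did not pass the test, with 0 of 5 called by limma, by limma-voom or at an unadjusted p below 0.05. PGD, PGLS, TKT, TALDO1 and RPIA, which carry out the oxidative and the sugar-exchanging steps, ranged from −0.11 to 0.28 in log2 fold change, with a median of 0.03, and the groups overlapped in each. The largest, that of PGLS, had a 95% interval of −0.13 to 0.68. Of 6 other genes of this pathway tested, out of 9 listed, 0 were called by limma, with 1 higher and 1 lower at an unadjusted p below 0.05 (12.8% and 10.7% of all genes) and 1 called lower by limma-voom (4.19%). With the replicate block 1 of them was called higher and 1 lower, against 7.67% and 4.81% of all genes. The lower one was H6PD, an enzyme of the pathway in the endoplasmic reticulum (adjusted p = 0.0328).

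HIF1A (ENSG00000100644), the oxygen-regulated subunit, was at 15.8, 21.7 and 23.4 FPKM in shNC and 14.3, 22.6 and 22.8 FPKM in shACAT2 libraries. The first library of each group was low and the others alike, so the spread within groups exceeded any difference between them. Its log2 fold change was −0.04 (95% interval −0.56 to 0.48, limma adjusted p = 0.934). EGLN1 and EGLN3, prolyl hydroxylases that mark HIF in oxygen and are themselves HIF targets, had log2 fold changes of 0.05 and 0.13, with overlapping groups. The share of EGLN3 in their sum was 42.5 ± 4.56% in shNC and 44.2 ± 1.57% in shACAT2 cells (SD, n = 3 each, exact permutation p = 0.6).

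The HIF target genes divided. ADM (ENSG00000148926, chromosome 11, 10304680 to 10307397), which encodes the vasodilator peptide adrenomedullin, was at 7.24, 6.97 and 6.81 FPKM in shNC-1 to shNC-3 and at 25.0, 20.01 and 15.9 FPKM in shACAT2-1 to shACAT2-3. The shNC libraries were close together, and the shACAT2 libraries were more than their whole spread higher. ADM was upregulated 2.90-fold in mean FPKM, with a log2 fold change of 1.39 (95% interval 1.02 to 1.77, limma adjusted p = 0.0078), 38th of all genes tested. Its adjusted p was 0.0562 without shNC-3, 0.0514 with shNC-3 averaged with shNC-2, and 0.0069 without shACAT2-3.

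NDRG1 (ENSG00000104419, chromosome 8, 133237171 to 133302022), a stress-responsive gene that HIF induces, was at 0.466, 0.345 and 0.425 FPKM in shNC-1 to shNC-3 and at 2.13, 1.82 and 1.65 FPKM in shACAT2-1 to shACAT2-3, from 55 to 317 fragments. The groups were well apart. Its log2 fold change was 1.02 (95% interval 0.70 to 1.33, limma adjusted p = 0.0118) and the ratio of mean FPKM was 4.52, but with a mean of 0.412 FPKM in shNC cells it passed the filter only through the group where it is high, so among the genes tested it had to differ. The adjusted p was 0.0534 without shNC-1, 0.0708 without shNC-2, 0.0774 without shNC-3, 0.0660 without shACAT2-2 and 0.0678 with the close shNC pair averaged.

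VEGFA, the main growth factor for vessels and a classical HIF target, was at 7.07, 6.24 and 6.15 FPKM in shNC and 7.34, 6.92 and 6.06 FPKM in shACAT2 libraries, with overlapping groups and a log2 fold change of 0.05 (95% interval −0.19 to 0.30, limma adjusted p = 0.802). CA9, a carbonic anhydrase that is among the most HIF-dependent genes, was at 0.117, 0 and 0 FPKM in shNC and 0, 0 and 0.0798 FPKM in shACAT2 libraries, at most 3 fragments. BNIP3, a mitophagy receptor, was at 0.331, 0.359 and 0.447 FPKM in shNC and 0.408, 0.418 and 0.513 FPKM in shACAT2 libraries, under the filter and with overlapping groups. SLC2A1, LDHA, PGK1, HK2 and PDK1, which HIF also induces, were likewise not called or not tested. SLC2A3 and PGAM1, both called higher, belong to the glucose transporters and glycolytic enzymes, kinds of gene that HIF raises. Whether HIF had a part in their rise was not tested.

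A wider list of 34 further HIF targets, chosen with earlier results of these data known, gave 30 genes tested, with a median log2 fold change of 0.16. Of these, 6 rose and 1 fell by limma, and 5 and 2 by limma-voom (4.24% and 4.19% of all genes). At an unadjusted p below 0.05, 9 were higher and 2 lower, against 12.8% and 10.7% of all genes. Over all genes 3.3% rose and 1.81% fell by limma. Because of how the list was chosen, its counts are a description and not independent support. LOX, the collagen cross-linking oxidase, went from 12.8 ± 1.09 to 27.3 ± 2.44 FPKM (SD, 3 libraries each), a log2 fold change of 1.04 (limma adjusted p = 0.0070). ERO1A, which forms disulphide bonds in the endoplasmic reticulum, went from 4.24 ± 0.255 to 8.29 ± 0.518 FPKM (SD, 3 libraries each), a log2 fold change of 0.83 (limma adjusted p = 0.0070). P4HA2, a collagen prolyl hydroxylase, rose by 0.68, TMEM45A by 0.84, the lipoprotein receptor VLDLR by 0.59 and the mitophagy receptor BNIP3L by 0.52 on the log2 scale (limma adjusted p = 0.0284, 0.0149, 0.0218 and 0.0423). AK4, a mitochondrial adenylate kinase, fell by 0.63 (limma adjusted p = 0.0254). Over the 30 genes, all shACAT2 values lay above all shNC values in 9 (16.2% of all genes) and below in 4 (14.5%). The groups overlapped in 17. The 7 called genes were among those without overlap, which their call makes likely.

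These calls were sensitive to single libraries. LOX had a limma adjusted p of 0.0512 without shNC-3, and ERO1A 0.0559 and 0.0560 without shNC-2 and shNC-3. TMEM45A, VLDLR, P4HA2, BNIP3L and AK4 had 0.0703 to 0.124 without shNC-1, 0.0866 to 0.138 without shNC-2, 0.0774 to 0.162 without shNC-3 and 0.0709 to 0.138 without shACAT2-2, and BNIP3L had 0.0615 without shACAT2-3. With the replicate block, PLOD2 (adjusted p = 0.0447) and NFIL3 (0.0429) were also higher and HILPDA (0.0288) lower. Of the 4 other genes of the HIF pathway tested, out of 8 listed, 0 were called by limma or limma-voom, and 1 was higher and 1 lower at an unadjusted p below 0.05, against 12.8% and 10.7% of all genes. CITED2, a feedback inhibitor, was higher with the block (adjusted p = 0.0337).

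**Figure D2:**
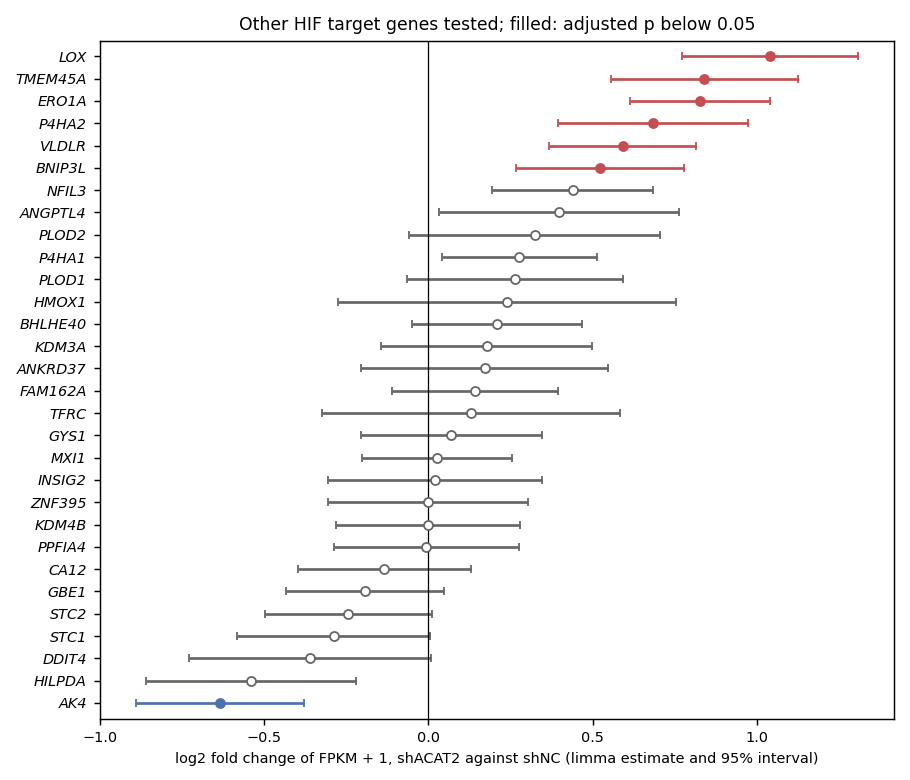
Log2 fold changes of FPKM + 1, shACAT2 against shNC, for the 30 further HIF target genes tested, with limma estimates as points and 95% intervals as bars (3 libraries per group). Filled points passed an adjusted p of 0.05, 6 higher (red, LOX to BNIP3L) and 1 lower (blue, AK4), and the 23 open points lie on both sides of 0.

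In the remaining wider lists few genes were called. Of 15 other glucose transport and glycolysis genes tested, out of 32 listed, 0 were called by limma, with a median log2 fold change of −0.01. At an unadjusted p below 0.05 1 of them was lower (10.7% of all genes), and limma-voom called 1 lower (4.19%). With the block PCK2, the mitochondrial enzyme that makes phosphoenolpyruvate, was lower (adjusted p = 0.0325). Of 9 other genes of pyruvate oxidation, 1 rose and 1 fell by limma (3.3% and 1.81% of all genes) and by limma-voom (4.24% and 4.19%). At an unadjusted p below 0.05, 2 were higher and 1 lower (12.8% and 10.7% of all genes). All shACAT2 values lay above all shNC values in 3 (16.2%) and below in 1 (14.5%). PDP1, a phosphatase that switches pyruvate dehydrogenase on, went from 1.78 ± 0.159 to 3.44 ± 0.542 FPKM (SD, 3 libraries each), a log2 fold change of 0.67 (limma adjusted p = 0.0307). PDP2, its sister enzyme, went from 6.82 ± 0.286 to 4.60 ± 0.0534 FPKM (SD, 3 libraries each), a log2 fold change of −0.48 (limma adjusted p = 0.0242), so the pair moved in opposite directions.

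Both phosphatase calls were lost without shNC-1 (limma adjusted p = 0.103 for PDP1 and 0.0937 for PDP2), shNC-2 (0.144 and 0.117), shNC-3 (0.126 and 0.143) or shACAT2-2 (0.115 and 0.0987), and that of PDP1 also without shACAT2-3 (0.0592). PDHB, a pyruvate dehydrogenase subunit, was called higher only with the block (adjusted p = 0.0448). Among 4 genes tested that report on glucose through MondoA and ChREBP, including TXNIP, 0 were called by limma or limma-voom and 0 had an unadjusted p below 0.05.

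In 29 of the 37 genes tested, or 78.4%, replicate 1 had the highest FPKM of its group in both groups, against 39.5% of all genes tested, and in 3 of them, HIF1A included, it had the lowest in both, against 24.3% of all genes. SLC2A3, PGAM1, ADM and NDRG1 were highest in shACAT2-1, and without that library their log2 fold changes lay between 0.95 for NDRG1 and 1.64 for PGAM1 (limma adjusted p = 0.0075, 0.0048, 0.0075 and 0.0301 in the order above). Without shACAT2-3, the library with many genes of its own, they were 1.52, 1.77, 1.55 and 1.07 (limma adjusted p = 0.0090, 0.0079, 0.0069 and 0.0219). With the close shNC pair averaged as 1 library, SLC2A3 and PGAM1 were still called (limma adjusted p = 0.0291 for each).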

How the data were processed

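The deposited table holds FPKM of 58735 genes for each of the 6 libraries. The submitters' processing notes name HISAT2 2.0.5, featureCounts 1.5.0-p3, DESeq2 1.20.0 and hg38, and the strand setting is not given in the sources used here. All 58735 gene lengths equal those of GENCODE 29. Each FPKM times its gene length was a whole multiple of 1 step per library, so fragments were recovered (100% whole within 0.1), 14086416 to 16067486 per library. The total was 0.930 to 1.05 times the denominator of the deposited FPKM, which followed median-of-ratios factors more closely (0.997 to 1.03). Fragments are not independent molecules, and depth covers counting error only. No per-sample column was left unused (0).

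Genes were tested where 1 group or both averaged 1 FPKM or more, with limma 3.58.1 (trend, R 4.3.3) on log2(FPKM + 1), all 6 libraries, no covariate, Benjamini-Hochberg over 13832 genes. Shares used two-sided exact permutation tests (scipy 1.17.1), adjusted over 10 shares. On simulated data, with large changes only and no shared shift between replicates, the fit returned most of the changes put in. Smaller changes and the spread seen between these libraries were not simulated. Deviations from the group means correlated at 0.445, 0.126 and 0.171 for same-numbered libraries 1, 2 and 3. All were above 0.1, so the number was taken to pair them and a replicate block was an alternative, but shNC-2 with shACAT2-3 (0.198) and shNC-3 with shACAT2-2 (0.141) were as high, and only number 1 stood apart. The chi-square of shNC-2 and shNC-3 was above sampling noise, and they were kept as 2 libraries. Other alternatives were scaling, filter, pseudocount, limma-voom and left-out libraries.

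The 42 genes and all lists were chosen with earlier results of these data known. Named by rule were SLC2A3, SLC2A1, the called genes, 12 glycolytic and HIF genes, and called genes of the wider lists. Other genes were named after their values were seen, such as those of which a block or an alternative changed the call. Promoters came from RefSeq (GRCh38.p14). Of the wider pentose phosphate list, 1 gene is not reported here by name.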

Additional observations from a re-analysis of the deposited data

How the results depend on the processing

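SLC2A3 and PGAM1 were called higher under every alternative run, and the log2 fold change of SLC2A3 was 1.47 to 1.65 with 1 library left out. The count of the 42 genes called higher was 4 and ran from 2 to 4 with 1 library left out (2 without shNC-3), and was 2 when shNC-2 was averaged with shNC-3. The count called lower was 0 and became 1, ENO2, with library-size scaling, upper-quartile scaling, limma-voom and the replicate block, and ran from 0 to 1 with 1 library left out. Past the study's limits were 3 to 4. The count over all genes was 706, and became 209 with no filter, 1167 with limma-voom, 1727 with the replicate block and 83 with the averaged libraries, and ran from 63 without shNC-3 to 862 without shACAT2-1, with 135, 101 and 129 without shNC-1, shNC-2 and shACAT2-2. Of the 706, 64.6% were higher, against 55.3% with library-size scaling, 54.4% with upper-quartile scaling and 50.3% with limma-voom. ACAT2 was at −1.07 to −0.94 with 1 library left out, with an adjusted p of 0.0512 at −1.01 without shNC-3. The block called HK1 and ENO2 and changed no other call among the 42 genes.

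Genes near 0 changed sign. With library-size scaling, upper-quartile scaling and limma-voom, PDK2 was at −0.00157, −0.00614 and −0.00271 and TKT at −0.0221, −0.0283 and −0.0212 on the log2 scale. EGLN1 was at −0.00421 with upper-quartile scaling, and TKT and HIF1A at −0.0136 and 0.0407 with the averaged libraries. With 1 library left out, TPI1 ran from −0.231 to 0.167, GAPDH from −0.143 to 0.0537, PGD from −0.141 to 0.0403, GPI from −0.0177 to 0.144, PFKP from −0.00422 to 0.211, ENO1 from −0.0159 to 0.255, PDK2 from −0.00273 to 0.0749, TKT from −0.112 to 0.163, EGLN1 from −0.00291 to 0.0778 and HIF1A from −0.200 to 0.171. None of these was called. The causes were not tested. Counted per fragment and not per length, the ENO2 share differed by −0.408 percentage points. CA9 and PDK4 held at most 3 and 2 fragments per library, too few to show a difference. BNIP3 held 27 to 41 fragments and was left out of the genes tested by the filter of 1 FPKM.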
